A study of Mus musculus with 3 samples.

Results

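Microglia in which at most 1 gene of an interleukin-1 list and at most 1 gene of a disease-associated list was detected numbered 202 among the 1373 microglia and 14759 barcodes of the series. They are called list-low microglia here. A barcode counted as a microglia when it held at least 2000 unique molecular identifiers (UMIs, each standing for 1 captured transcript) and at most 20% mitochondrial UMIs. It also had to hold UMIs of at least 3 of Cx3cr1, P2ry12, Tmem119, Csf1r, C1qa and Siglech, of at most 1 of Mrc1, Pf4, Cd163, Lyve1 and F13a1, and of at most 1 of Cldn5, Flt1, Slc1a2 and Aqp4. The interleukin-1 list was Il1a, Il1b, Gpr84, Nlrp3 and Ccl9. The disease-associated list was Lpl, Cst7, Itgax, Spp1 and Gpnmb; Clec7a, a further gene of that list, was not analysed here.

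Droplet 3′ RNA sequencing had been run on single cells from the hippocampus of wild-type C57BL/6 mice at an advanced age. The series holds 3 libraries, replicates 1, 2 and 3, all of 1 group, labelled 2 years old (the title of replicate 3 gives a nearby age in months), so no age or treatment could be compared. The tissue was digested with papain and stripped of myelin before loading, and the libraries are not tied to individual animals. The 3 libraries held 45716237, 7185668 and 40377042 UMIs, and 9531 barcodes passed the depth and mitochondrial limits.

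Microglia are the resident macrophages of the brain, and in the unchallenged state they carry the purine receptor P2ry12, the fractalkine receptor Cx3cr1, Tmem119 and the lectin Siglech. The zinc-finger factor Sall1 and transforming growth factor β signalling are known to maintain this homeostatic state. Inflammatory stimuli activate NF-κB, which turns on Il1a, Il1b, Tnf and chemokine genes as well as its own inhibitor Nfkbia. In the disease-associated state, known from plaque-bearing and ageing brains, Trem2 signalling accompanies higher Apoe, Cst7, Lpl and Spp1 and lower homeostatic genes.

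Promoters are shown for 4 genes named below whose windows held a searched motif. Nfkbia encodes the NF-κB inhibitor IκBα and Csf1 a ligand of the microglial survival receptor Csf1r. B2m encodes the light chain of MHC class I and Adora3 an adenosine receptor. Nfkbia, Csf1 and B2m were lower in list-low microglia than in microglia with interleukin-1 genes. Adora3 was higher in list-low microglia than in non-myeloid cells. Windows were found for 4 of the 5 markers P2ry12, Tmem119, Cx3cr1, Siglech and Sall1, and none held a searched motif. Each line gives the 250 bases before the annotated start, 5′ to 3′ on the strand of the gene, from RefSeq (GRCm38.p6). Capitals mark the searched motifs: the κB consensus bound by NF-κB, the AP-1 site TGANTCA and the PU.1 core GAGGAAGT, on either strand.
Nfkbia: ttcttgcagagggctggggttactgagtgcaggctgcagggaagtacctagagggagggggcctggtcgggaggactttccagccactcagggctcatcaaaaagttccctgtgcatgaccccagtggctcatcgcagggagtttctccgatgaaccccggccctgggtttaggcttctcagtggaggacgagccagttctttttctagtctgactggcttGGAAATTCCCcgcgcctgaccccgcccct
Csf1: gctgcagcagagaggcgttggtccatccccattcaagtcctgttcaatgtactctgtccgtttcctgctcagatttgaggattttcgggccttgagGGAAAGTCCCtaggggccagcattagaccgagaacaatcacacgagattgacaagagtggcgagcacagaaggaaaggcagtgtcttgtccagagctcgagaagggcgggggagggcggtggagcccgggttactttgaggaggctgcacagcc
B2m: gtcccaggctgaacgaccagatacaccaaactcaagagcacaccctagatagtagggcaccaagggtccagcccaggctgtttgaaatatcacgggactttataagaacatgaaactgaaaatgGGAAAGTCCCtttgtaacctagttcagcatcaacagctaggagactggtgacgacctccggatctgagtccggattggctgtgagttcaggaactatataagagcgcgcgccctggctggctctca
Adora3: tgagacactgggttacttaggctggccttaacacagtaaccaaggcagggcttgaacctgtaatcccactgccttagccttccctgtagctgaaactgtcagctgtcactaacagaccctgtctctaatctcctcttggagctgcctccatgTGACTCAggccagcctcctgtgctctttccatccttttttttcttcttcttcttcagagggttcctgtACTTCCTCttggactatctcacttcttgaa
The windows lie at chr12:55492648-55492897 (minus strand), chr3:107760470-107760719 (minus strand), chr2:122147437-122147686 (plus strand) and chr3:105904171-105904420 (plus strand). The NF-κB motif begins 29 bases before the start of Nfkbia, 154 before that of Csf1 and 126 before that of B2m. In Adora3 the AP-1 motif begins 98 bases and the PU.1 motif 30 bases before the start. Among 32851 RefSeq windows of the same length, 0.356% held the NF-κB motif, 6.75% the AP-1 motif and 2.44% the PU.1 motif. A match describes these letters and is not evidence of binding.

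List-low microglia numbered 90, 17 and 95 cells in replicates 1, 2 and 3. They made up 12.8% (exact 95% binomial interval 10.4 to 15.5%) of the 702 microglia of replicate 1, 25.4% (15.5 to 37.5%) of the 67 of replicate 2 and 15.7% (12.9 to 18.9%) of the 604 of replicate 3, a mean of 18.0 ± 6.57% (SD, n = 3). The interval of replicate 2 overlapped that of replicate 3 and, to the digits given, met that of replicate 1 at its edge. Of the other microglia, 889 held at least 2 genes of the interleukin-1 list (interleukin-1 microglia), 37 at least 2 of the disease-associated list (disease-associated microglia) and 245 at least 2 of each. The intervals cover counting error only.

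List-low microglia were shallower cells. Their median UMI count was 5515.5, 3476 and 4580 in replicates 1, 2 and 3, against 8260, 8644.5 and 7144 in interleukin-1 microglia. Since fewer UMIs leave fewer genes detected, the share depended on depth. When every cell was thinned to 2000 UMIs and the classes cut again, 604 of 1618 microglia were list-low, a mean of 40.6 ± 7.64% (SD, n = 3). Those 604 included 197 of the 202, along with 261 cells that were interleukin-1 microglia at full depth. Per cell thinned to 2000 UMIs, list-low microglia held a median of 929, 971 and 1034 genes, against 889.5, 885.5 and 952 in interleukin-1 microglia. Mitochondrial UMIs had a median of 1.44, 2.86 and 2.52% in list-low microglia and of 1.25, 4.87 and 2.14% in interleukin-1 microglia.

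**Figure D1:**
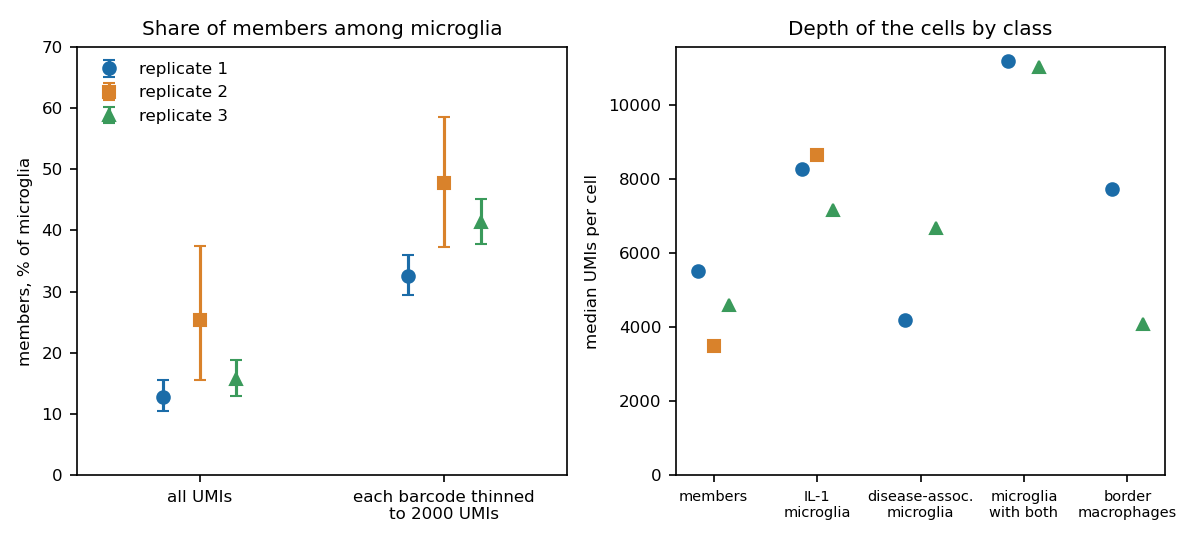
Left, the share of list-low microglia (members) among microglia of each library in percent, with exact 95% binomial intervals, from all UMIs and from cells thinned to 2000 UMIs. Right, the median UMIs per cell of 5 myeloid classes by library. The share is 12.8 to 25.4% from all UMIs and averages 40.6% after thinning, and list-low microglia lie below interleukin-1 microglia in depth in all 3 libraries.

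The label "without interleukin-1 genes" held only as far as the rule goes. Of the 202 cells, 143 held exactly 1 gene of the interleukin-1 list, 55 exactly 1 of the disease-associated list and 43 exactly 1 of both. In 47 cells no gene of either list was detected, and these had a median of 3700 UMIs. The 143 cells with 1 interleukin-1 gene averaged 473 CPM (UMIs scaled to a common total of 1000000 per profile) of Il1a and 1797 CPM of P2ry12, against 881 and 1532 CPM in the 234 cells just outside the limit with 2 such genes. The 55 cells with 1 disease-associated gene had 130 CPM of Cst7, a lysosomal protease inhibitor, and 35.0 CPM of Lpl, a lipoprotein lipase, against 839 and 168 CPM in the 16 cells with 2. These values chose the cells and are given as description.

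The homeostatic markers were present at high levels, as the microglial part of the label requires, and the rule selected cells on 4 of the 5. P2ry12 had 1513, 2120 and 1998 CPM in list-low microglia of replicates 1, 2 and 3, against 969, 1485 and 1327 CPM in interleukin-1 microglia. Cx3cr1 had 2552, 3156 and 2612 CPM in list-low microglia, against 1721, 1613 and 2122 CPM. Tmem119, a membrane protein of microglia, had 932, 999 and 1302 CPM in list-low microglia, against 596, 679 and 869 CPM. In each library these 3 genes were higher in list-low microglia. Siglech had 1268, 777 and 1110 CPM in list-low microglia and 1070, 728 and 852 CPM in interleukin-1 microglia, and was higher in list-low microglia in each library although the ranges overlapped. P2ry12, Cx3cr1, Tmem119, Siglech and Sall1 together made up 0.696 ± 0.0453% of UMIs in list-low microglia, 0.479 ± 0.0461% in interleukin-1 microglia (SD, n = 3 each), 0.220% in disease-associated microglia and 0.0225% in border macrophages. Border macrophages were admitted with at most 1 of P2ry12, Tmem119 and Siglech detected, so their low share was partly set in advance.

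Sall1, the 1 marker outside the rule, had 176, 185 and 192 CPM in list-low microglia, against 98.7, 94.6 and 147 CPM in interleukin-1 microglia. The groups did not overlap in CPM, but the test with scaling, given below, did not call Sall1. Elsewhere Sall1 averaged 47.8 CPM in disease-associated microglia, 43.6 CPM in microglia with genes of both lists, 27.9 CPM in astrocytes and 1.2 CPM in border macrophages. After thinning to 2000 UMIs, 89.2 ± 9.49% (SD, n = 3) of list-low microglia held a UMI of P2ry12 (94.6% unthinned) and 34.3% one of Sall1 (52.9% unthinned). In endothelial cells, which should lack both, the thinned shares were 1.18% and 0.162%. Endothelial cells were admitted only with few microglia genes of the rule detected, P2ry12 among them. The P2ry12 share there was therefore partly capped and does not fix the level of free RNA.

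The listed genes themselves were low in list-low microglia but not absent. Il1a, which encodes interleukin-1α, had 472, 333 and 220 CPM in list-low microglia, against 2498, 2393 and 1191 CPM in interleukin-1 microglia. At 2000 UMIs an Il1a UMI was found in 24.1% of list-low microglia (34.2% unthinned), in 78.0% of interleukin-1 microglia (93.7% unthinned) and in 2.48% of endothelial cells. Il1b averaged 19.4 CPM, the lipid receptor Gpr84 43.6 CPM, the inflammasome sensor Nlrp3 15.3 CPM and the chemokine Ccl9 29.6 CPM in list-low microglia, against 580, 497, 294 and 438 CPM in interleukin-1 microglia. Spp1, which encodes osteopontin, had 9.8, 0 and 181 CPM in list-low microglia against a mean of 3752 CPM in disease-associated microglia, and Gpnmb had 0 CPM against 545 CPM. Of the border macrophage genes, Cd163 and Lyve1 were at 0 in list-low microglia and Mrc1 had 11.7, 0 and 0 CPM, against a mean of 1498 CPM in border macrophages.

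**Figure D2:**
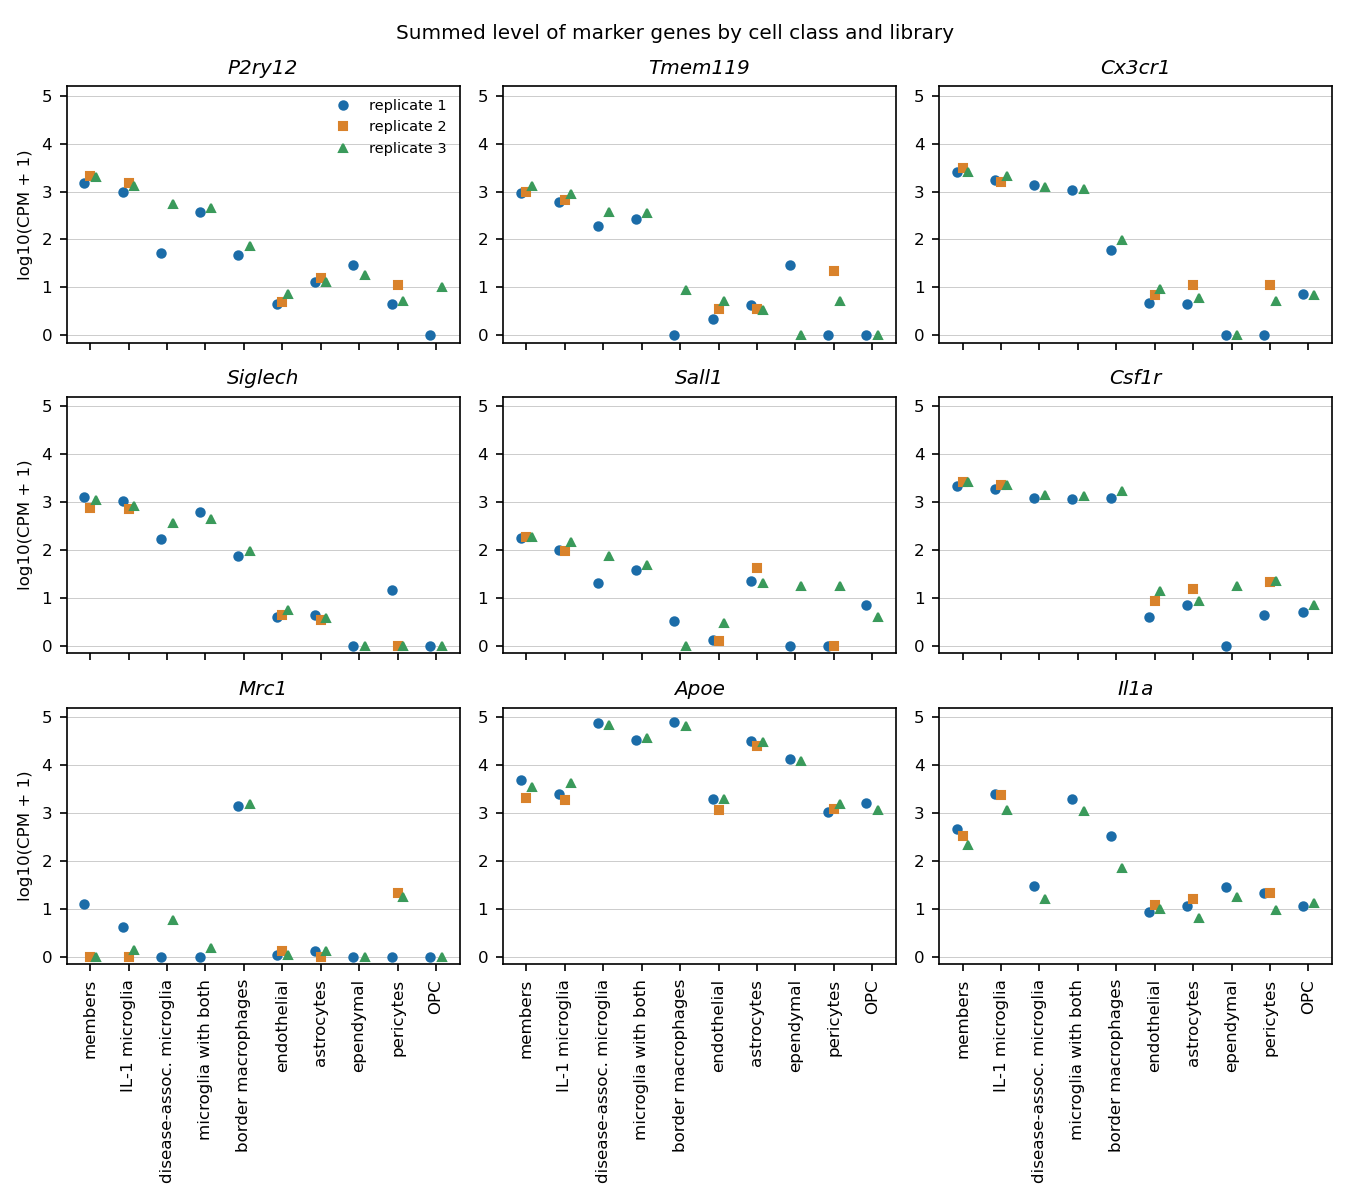
Levels of 9 genes as log10(CPM + 1) in 10 cell classes, 1 point per library, with list-low microglia (members) leftmost. P2ry12, Tmem119, Cx3cr1 and Sall1 are high in list-low microglia, Apoe averages 72866 CPM in disease-associated microglia and 73214 CPM in border macrophages, and Il1a is not at 0 in list-low microglia.

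The most abundant transcripts outside the rule included those of a secreted protease inhibitor, chemokines, lysosomal enzymes and complement. Cst3, the secreted protease inhibitor cystatin C, averaged 60299 ± 8037 CPM (SD, n = 3), followed by the nuclear RNA Malat1 at 26251 ± 3552 CPM and the actin-binding Tmsb4x at 14247 ± 375 CPM. The chemokine genes Ccl4 and Ccl3 averaged 9195 ± 3810 and 5295 ± 1507 CPM. The lysosomal proteases Ctss and Ctsd averaged 6469 ± 379 and 6432 ± 151 CPM. C1qb, a chain of the complement initiator C1q, averaged 7038 ± 1414 CPM. The spread over libraries was narrow for Ctsd and Tmsb4x and wide for Ccl4.

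Genes of at least 50 CPM were set against the highest of the 5 non-myeloid classes. The level of Adora3 was 78.3, 74.0 and 125 CPM in list-low microglia, a mean of 92.4 ± 28.3 CPM (SD, n = 3), against a mean of 0.122 CPM in endothelial cells. All non-myeloid classes together held 5 of its UMIs, and a class at 0 allows up to 32.1 CPM in ependymal cells, 4.88 CPM in pericytes and 3.73 CPM in oligodendrocyte precursors by the limit of 3 counts, so no ratio is fixed by these counts. Tnfrsf13b, a receptor for B-cell survival factors, had a ratio of 387, resting on 10 UMIs, and the adenosine diphosphate receptor P2ry13 at 250, with 367 CPM in list-low microglia against 1.47 CPM. The sialic acid lectin Cd33 had a ratio of 206, the fructose transporter Slc2a5 190, the uridine diphosphate receptor P2ry6 185 and the Fc receptor Fcgr1 170. The ratios describe classes drawn from the same cells, and all 7 of these genes were at 0 in ependymal cells, where the same limit holds.

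Variation among list-low microglia was ranked in cells thinned to 2000 UMIs, by the lowest of the 3 libraries' variance to mean ratios. The first 10 genes were Malat1, Cst3, Ccl4, Ccl3, Apoe, Hspa1b, the mitochondrially encoded mt-Co3 and mt-Atp6, Hspa1a and Nfkbia. Malat1 had a variance to mean ratio of 47.3, 33.8 and 42.2 in replicates 1, 2 and 3, and Cst3 one of 36.5, 31.9 and 29.8. Ccl4 had ratios of 38.1, 47.0 and 29.7, with medians of 4.5, 9 and 2 UMIs per cell and maxima of 126, 103 and 78. Ccl4 was at 0 in 25, 5 and 33 cells, so the class held both cells without detected Ccl4 and cells rich in it. Hspa1a, a heat shock chaperone, had ratios of 29.5, 9.22 and 26.9 and was at 0 in 47, 9 and 58 cells; its near-identical copy Hspa1b, with which reads may be shared, had 27.0, 14.3 and 11.3. Nfkbia had ratios of 10.2, 12.3 and 9.06, and mt-Atp6 14.6, 14.7 and 11.0.

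Apoe, the lipid carrier known to be high in disease-associated microglia, separated a few cells from the rest. Its variance to mean ratio was 98.4, 11.5 and 125 in replicates 1, 2 and 3, the highest of these 10 genes in replicates 1 and 3, its median 3, 1 and 3 UMIs, and its maximum 253, 24 and 272 UMIs. At least 50 Apoe UMIs were found in 4, 0 and 4 list-low microglia, or 4.44, 0 and 4.21% of them. In replicates 1 and 3 the share was 75% and 61.9% in disease-associated microglia and 100% and 96.3% in border macrophages. It was 40% and 44.4% in microglia with genes of both lists, and 2.17% and 2.97% in interleukin-1 microglia. The 4 and 4 Apoe-rich list-low cells held 57.3% and 64.5% of the Apoe UMIs of list-low microglia in replicates 1 and 3. None of them had more than 1 UMI of P2ry12, and which class they resemble was not tested. Cst3 by contrast had medians of 122.5, 88 and 128 UMIs per list-low cell.

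**Figure D3:**
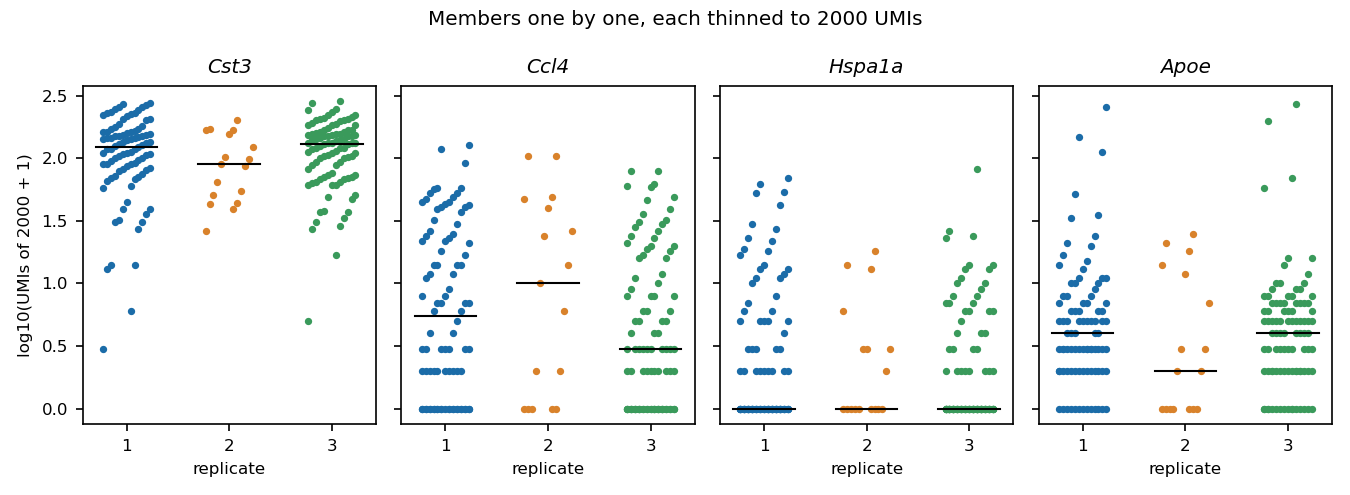
UMIs of Cst3, Ccl4, Hspa1a and Apoe in each of the 202 list-low microglia (members), as log10(UMIs + 1), 1 point per cell and 1 column per library, each cell thinned to 2000 UMIs, with the median as a line. Cst3 is high in nearly all cells, Ccl4 spreads between 0 and 126 UMIs, and 8 cells lie at 50 or more UMIs of Apoe.

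Differences between classes were read from 1 profile per class and library, the sum of its cells' UMIs, with edgeR's quasi-likelihood test, library as a block and p-values adjusted by Benjamini-Hochberg over all genes tested. Classes were cut from UMIs of these same cells, so genes expressed together with the rule genes had to differ. The adjusted p therefore measures only how a difference compares with the spread between library profiles. That spread was estimated over all classes of a fit, with 5 residual degrees of freedom for the myeloid classes. Disease-associated microglia, border macrophages, ependymal cells and oligodendrocyte precursors entered from replicates 1 and 3 only. The scaling by trimmed means gave the list-low profiles larger factors (1.07, 1.17 and 1.19) than the interleukin-1 profiles (0.907, 0.905 and 1.03). Larger factors lower the scaled levels, so log2 changes are lower than the CPM ratios would give.

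Against interleukin-1 microglia, genes of NF-κB signalling and chemokines were lower in list-low microglia, whereas no homeostatic gene outside the rule differed past the threshold. Of 6656 genes tested, 133 (2.00%) were higher and 342 (5.14%) lower, 7.14% in all, with a median log2 change of 0.00 over all genes. Without replicate 1 the counts were 41 higher and 222 lower. Of 23 tested genes of the list of NF-κB targets and cytokines, 21 were lower and 0 higher, with a median log2 change of -1.43. This list lies closest to the interleukin-1 genes that defined the classes. With cells holding any astrocyte marker left out, which left 10, 5 and 16 list-low and 58, 9 and 43 interleukin-1 microglia and replicate 2 out of the fit, 1 of the 23 was lower, with a median of -1.11.

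Tnf, the cytokine tumour necrosis factor, had 548, 962 and 442 CPM in list-low microglia of replicates 1, 2 and 3, against 1606, 2599 and 1686 CPM in interleukin-1 microglia. The groups did not overlap, and the log2 change was -1.90 ± 0.17 (SE; edgeR adjusted p = 2.0e-11). Nfkbia had 2010, 2552 and 1985 CPM in list-low microglia, against 2743, 4077 and 4661 CPM, a log2 change of -1.03 ± 0.16 (edgeR adjusted p = 9.6e-06). Csf1 had 215, 247 and 162 CPM in list-low microglia, against 513, 518 and 283 CPM, a log2 change of -1.29 ± 0.20. Tnfaip2, a gene induced by tumour necrosis factor, had 50.9, 37.0 and 28.0 CPM in list-low microglia, against 393, 357 and 283 CPM, a log2 change of -3.33 ± 0.29. All 4 were lower in list-low microglia in each library. The NF-κB subunit genes Nfkb2 and Rel (-2.26 and -1.58) and the bacterial sensors Tlr2 and Cd14 (-1.79 and -1.61) were lower too. The survival genes Bcl2a1d (-4.18 ± 0.46) and Bcl2a1b (-2.85 ± 0.50) are near-identical copies, and their values are uncertain. Of the 21 lower genes, 16 had a RefSeq promoter window. The NF-κB motif printed above was held by 3 of these (Csf1, Nfkb2 and Nfkbia), against 0.414% of 27025 genes. The list was drawn up from NF-κB targets and cytokines, so this share may follow from the choice of genes. It gives no information on the change in level. The AP-1 motif was in 5 of the 16, against 7.82% of genes, and the PU.1 motif in 3, against 2.79%; the near-identical Bcl2a1b and Bcl2a1d count in both.

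Of 13 chemokine genes tested, 7 were lower and 0 higher, with a median of -1.74. Ccl4 had 8703, 13228 and 5656 CPM in list-low microglia, against 32213, 27460 and 16079 CPM in interleukin-1 microglia, a log2 change of -1.74 ± 0.15 (edgeR adjusted p = 3.5e-12). Ccl3 had 5000, 6928 and 3957 CPM in list-low microglia, against 20837, 20737 and 10256 CPM, a log2 change of -1.94 ± 0.17. Ccl7, which attracts monocytes, had 27.4, 0 and 4.31 CPM in list-low microglia, against 378, 317 and 122 CPM, a log2 change of -4.56 ± 0.36. None of these 3 overlapped between the classes. Cxcl1 rested on 1 UMI in list-low microglia against 123, a ratio of 18.1 for interleukin-1 over list-low microglia (95% counting interval 3.19 to 722). Ccl8 went the other way without passing the test (4.86 ± 1.18), with 141, 0 and 0 CPM in list-low microglia, so that value came from replicate 1. Border macrophages of replicates 1 and 3 had 2647 and 883 CPM of Ccl8.

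The 10 lowest genes also held some outside these lists. Slc7a11, the cystine transporter, had 45.0, 0 and 10.8 CPM in list-low microglia, against 587, 378 and 120 CPM in interleukin-1 microglia, a log2 change of -4.00 ± 0.39. Thioredoxin reductase Txnrd1 (-3.11 ± 0.29) and sulfiredoxin Srxn1 (-3.00 ± 0.53) were lower as well. Others among the 10 were Edn1, which encodes endothelin-1 (-3.71), the chemokine Ccl5 (-3.54), the urokinase receptor Plaur (-3.12) and the small GTPase gene Arl5c (-2.92 ± 0.23). All of these were lower in list-low microglia.

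Among 28 disease-associated genes outside the rule, 7 were lower and 0 higher, with a median of -0.53. Cd83, a surface protein of activated cells, had 1168, 2342 and 1315 CPM in list-low microglia, against 2978, 3888 and 3026 CPM in interleukin-1 microglia, a log2 change of -1.36 ± 0.19. The ferritin heavy chain Fth1 had 6820, 6817 and 5386 CPM in list-low microglia, against 11216, 10084 and 7507 CPM, a log2 change of -0.85. B2m was lower by a smaller step (-0.52), with overlapping levels of 2842, 1886 and 2142 CPM in list-low microglia and 3221, 2206 and 2806 CPM in interleukin-1 microglia. It belonged to the MHC class I list, of which 6 of 12 genes were lower and 0 higher (median -0.57), H2-K1 by -0.71 among them. Of 11 complement genes, the anaphylatoxin receptors C5ar1 (-2.23 ± 0.25) and C3ar1 (-1.57) were lower. C5ar1 had 72.4, 98.6 and 103 CPM in list-low microglia, against 463, 333 and 285 CPM. C4b, described below with the highest genes, was the 1 complement gene that was higher.

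Regulators moved in both directions. Of 14 genes of transforming growth factor β signalling, 1 was higher and 5 lower. The higher one was the inhibitory Smad7, with 656, 653 and 515 CPM in list-low microglia, against 333, 286 and 339 CPM in interleukin-1 microglia, a log2 change of 0.64 ± 0.19. The signal mediator Smad4 (-1.11), the repressor Tgif1 (-1.04) and Nrros (-0.97), which anchors latent growth factor on microglia, were among those lower. Of 19 myeloid transcription factors, Maf was higher (0.64 ± 0.20). Maf is also on a list of border macrophage genes outside the rule, and had 853 and 1576 CPM in border macrophages of replicates 1 and 3. Of 19 tested genes of that list, 1 (Maf) was higher and 0 lower (median 0.45 with genes at 0 UMIs set to their bound). Spi1, which encodes PU.1, was lower, with 299, 284 and 470 CPM in list-low microglia, against 669, 579 and 665 CPM, a log2 change of -1.09 ± 0.21. Of 29 immediate early and dissociation genes, 2 were higher and 6 lower, with a median of -0.30. Jun, an AP-1 subunit, had 3621, 5079 and 2617 CPM in list-low microglia, against 1666, 2072 and 2103 CPM, a log2 change of 0.67 ± 0.19, and Dusp6 was higher by 0.79. The nuclear receptor genes Nr4a3 (-1.83) and Nr4a1 (-0.99) were lower.

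Of 29 homeostatic genes tested outside the rule, 0 passed edgeR's threshold in either direction, 5 were higher and 0 lower at an unadjusted p under 0.05, and DESeq2 called 0. Their log2 changes spanned -0.32 to 0.52, with a median of 0.12. Sall1 had a log2 change of 0.43 ± 0.20 (edgeR adjusted p = 0.21) and Adora3 one of 0.52 (edgeR adjusted p = 0.21). Trem2 had 2531, 1849 and 2326 CPM in list-low microglia and 2429, 1849 and 2238 CPM in interleukin-1 microglia. With classes cut after thinning to 2000 UMIs, 6 of the 29 were higher. A p that misses the threshold does not show that these genes were alike.

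The counts of the other lists stand beside 2.00% higher and 5.14% lower over all 6656 genes. Of 23 genes of Trem2 and phagocytic receptors, 0 were called by edgeR or DESeq2, with 3 higher and 2 lower at an unadjusted p under 0.05. Of 13 mitochondrially encoded genes, 0 were called by either tool and 0 passed at an unadjusted p under 0.05. Of 8 MHC class II genes, 0 were called by edgeR and 1 was lower by DESeq2, as was 1 at an unadjusted p under 0.05, with a median of -0.89. Cd74, the invariant chain, was found in 9.84 ± 10.6% of list-low microglia at 2000 UMIs (24.8% unthinned) and in 35.0% of interleukin-1 microglia (62.5% unthinned), against 1.06% of endothelial cells. Of 19 interferon genes, 4 were lower and 0 higher, led by Slfn2 (-2.52 ± 0.26). Of 81 ribosomal protein genes, 1 was lower and 0 higher by edgeR (median -0.32), and 43 were lower and 0 higher at an unadjusted p under 0.05, against 804 lower of all 6656 genes. Of 20 purine and other surface receptors 3 were lower, and of 29 lysosomal hydrolases 1 (Ctsz, -0.56). Of 18 genes of lipid handling and cholesterol, 1 was higher and 0 lower.

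The 10 highest genes against interleukin-1 microglia were genes that astrocytes or oligodendrocyte precursors also express. Cspg5, a neural proteoglycan, had 284, 61.6 and 77.6 CPM in list-low microglia, against 26.9, 23.6 and 27.5 CPM in interleukin-1 microglia, a log2 change of 2.30 ± 0.31, while it averaged 1618 CPM in astrocytes and 2012 CPM in oligodendrocyte precursors. The growth factor Ptn (2.28), Nnat (1.75), Gpm6a (1.68), Gpr37l1 (1.57), the neurotrophin receptor Ntrk2 (1.54), complement C4b (1.54 ± 0.28), Sparcl1 (1.33) and the prion protein gene Prnp (1.33) were also among them. Astrocytes expressed each of these 8 at a mean of 754 to 5333 CPM. The 6 astrocyte markers made up 0.0791, 0.0419 and 0.0845% of UMIs in list-low microglia, against 0.0370, 0.0289 and 0.0383% in interleukin-1 microglia and 2.38% in astrocytes. Oligodendrocyte precursor markers made up 0.0493, 0.0012 and 0.0106% in list-low microglia, against 0.0026, 0.0012 and 0.0042%. Markers of 10 other classes were counted: endothelial cells, astrocytes, ependymal cells, pericytes, oligodendrocyte precursors, oligodendrocytes, neurons, T and NK cells, B cells and platelets. At least 3 of 5 erythrocyte markers, not among these, were found in 0, 4 and 28 list-low and 4, 12 and 84 interleukin-1 microglia. At least 3 markers of 1 of the 10 classes were found in 25 of 90, 2 of 17 and 14 of 95 list-low microglia. In interleukin-1 microglia the counts were 124 of 506, 10 of 46 and 72 of 337. With such cells left out, a step chosen after seeing the data, 8 of the 10 highest were still tested and 0 were called by edgeR (log2 changes 0.22 to 0.75), whereas all 10 lowest stayed called (-4.18 to -2.63). With those cells left out 20 of 23 genes of the NF-κB list were lower.

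**Figure D4:**
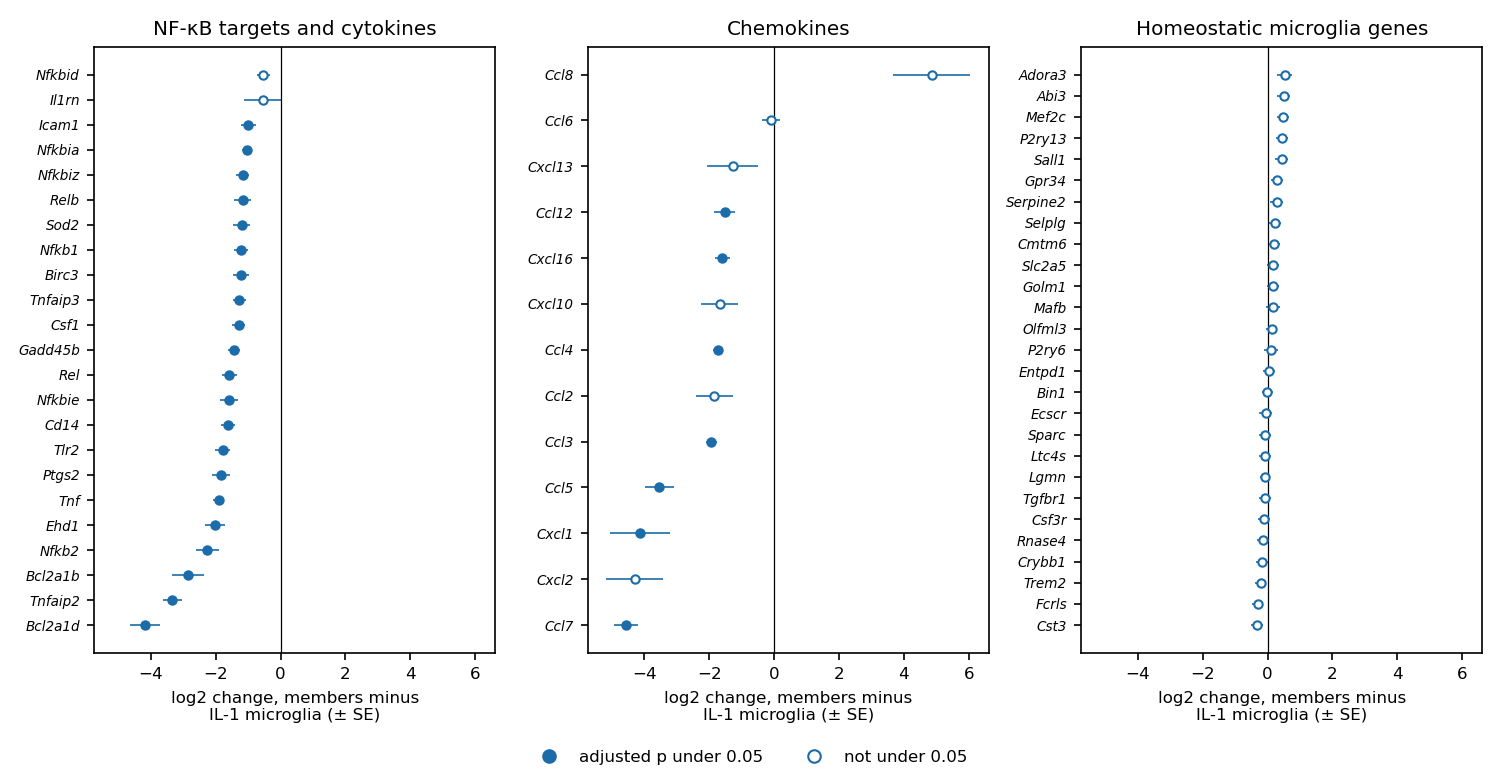
Log2 change of list-low microglia (members) minus interleukin-1 microglia, with its SE, for 23 genes of NF-κB signalling and cytokines, 13 chemokines and homeostatic genes; filled points have an adjusted p under 0.05 in edgeR's test. In the first panel 21 genes lie lower and filled, and in the third all genes drawn lie between -0.32 and 0.52 and are open; Cxcl1 rests on 1 UMI in list-low microglia.

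Against disease-associated microglia, which were present with at least 10 cells in replicates 1 and 3 (16 and 21 cells), 17 of 29 homeostatic genes were higher in list-low microglia. Lower there were 21 of 28 disease-associated genes, 12 of 29 lysosomal hydrolases and 6 of 18 genes of lipid handling. Of 6656 genes, 214 (3.22%) were higher and 280 (4.21%) lower, 7.42% in all, with a median log2 change of 0.09. Without replicate 1 there were 87 higher, and without replicate 3 there were 140 higher and 166 lower. Of the homeostatic genes 1 was lower, and their median was 0.96.

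Selplg, an adhesion ligand, had 1732, 1874 and 2388 CPM in list-low microglia, against 291 and 730 CPM in disease-associated microglia, a log2 change of 1.73 ± 0.24. Slc2a5 had 260, 284 and 282 CPM in list-low microglia, against 20.1 and 65.5 CPM, a log2 change of 2.22 ± 0.38. Crybb1 (1.89 ± 0.33), the leukotriene C4 synthase Ltc4s (1.88 ± 0.29), Sall1 (1.56 ± 0.38), the lysophosphatidylserine receptor Gpr34 (1.35) and the transcription factor Mef2c (1.17 ± 0.25) were higher as well. Cst3, with 65693, 51061 and 64141 CPM in list-low microglia against 17429 and 31116 CPM in disease-associated microglia, was higher too. The 1 lower gene of the list was Trem2, the lipid-sensing receptor, with 2531, 1849 and 2326 CPM in list-low microglia, against 3149 and 4478 CPM, a log2 change of -0.91 ± 0.20.

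Of 28 disease-associated genes outside the rule, 21 were lower and 1 higher (median -1.93). Apoe had 4854, 2083 and 3543 CPM in list-low microglia, against 76464 and 69268 CPM in disease-associated microglia, a log2 change of -4.37 ± 0.20 (edgeR adjusted p = 5.8e-15). Much of the list-low level in replicates 1 and 3 came from the 4 cells rich in Apoe in each. Lgals3, a sugar-binding galectin, had 7.83, 12.3 and 34.5 CPM in list-low microglia, against 1374 and 1486 CPM, a log2 change of -6.34 ± 1.01. Lyz2 (-4.07), the receptor kinase Axl (-2.82 ± 0.41) and the tetraspanin Cd63 (-2.27) were lower too, while Cd83 was the 1 higher gene (1.56 ± 0.26). Of 29 lysosomal hydrolases 12 were lower and 0 higher. The cathepsin Ctsb had 1924, 1825 and 1892 CPM in list-low microglia, against 5856 and 6260 CPM, a log2 change of -1.91 ± 0.18, and Ctsd was lower by -1.86 ± 0.20. Of 18 genes of lipid handling and cholesterol 6 were lower and 0 higher, among them the lipid droplet protein gene Plin2 (-3.60 ± 0.60) and the cholesterol carrier Npc2 (-1.29 ± 0.21), besides Apoe. Igf1, the growth factor, had 1 UMI in list-low microglia against 54, a ratio of 191 for disease-associated over list-low microglia (95% counting interval 32.9 to 7690). Apoc4 had 0 UMIs against 17, at least 20.1-fold lower by the limit of 3 counts over the class. Cybb, a subunit of the phagocyte oxidase, had 19.6, 0 and 12.9 CPM in list-low microglia, against 291 and 317 CPM, a log2 change of -4.49 ± 0.36.

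Immediate early and heat shock genes stood on the higher side here. Hspa1a had 3327, 1812 and 1817 CPM in list-low microglia, against 401 and 191 CPM in disease-associated microglia, a log2 change of 2.97 ± 0.23 (edgeR adjusted p = 2.4e-13). Of 29 immediate early and dissociation genes 12 were higher and 0 lower (median 1.11), among them Nr4a1 (2.71), Atf3 (1.80 ± 0.23) and Jun (1.61 ± 0.24). These genes are also known to be induced when tissue is dissociated with enzymes, and dissociation and state cannot be told apart in these libraries. Chemokine genes were split, with 2 of 13 higher and 3 lower. The 2 higher were Ccl3, with 5000, 6928 and 3957 CPM in list-low microglia against 792 and 776 CPM (log2 change 2.24 ± 0.22), and Ccl4 (2.09 ± 0.19). The NF-κB list was split, with 5 genes higher, such as Tnf (1.80) and Nfkbia (1.44 ± 0.21), and 6 lower, such as Cd14 (-2.74), of 23.

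Against border macrophages, the macrophages of vessels and meninges (58 and 27 cells in replicates 1 and 3), list-low microglia differed at more genes. Of 6656 genes, 615 (9.24%) were higher and 625 (9.39%) lower, 18.6% in all, with a median of 0.03; without replicate 1 there were 215 and 270. Of 29 homeostatic genes 23 were higher and 1 lower (median 2.37), and of 19 border macrophage genes outside the rule 18 were lower and 0 higher (median -4.99 with genes at 0 UMIs set to their bound). Border macrophages had to hold at least 3 of Mrc1, Pf4, Cd163, Lyve1 and F13a1 and at most 1 of P2ry12, Tmem119 and Siglech. Genes expressed together with these had to differ, so both counts were partly set by the class rule. Sparc, a matrix-binding protein, had 3380, 3057 and 2918 CPM in list-low microglia, against 25.7 and 15.8 CPM in border macrophages, a log2 change of 6.94 ± 0.35 (edgeR adjusted p = 2.8e-17). Olfml3 (5.14), Selplg (4.37 ± 0.28) and Cd9 (4.02 ± 0.26) were also higher. P2ry6 was the 1 homeostatic gene that was lower (-0.92 ± 0.26), with 97.9, 98.6 and 175 CPM in list-low microglia against 133 and 386 CPM.

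Of 14 transforming growth factor β genes, 6 were higher and 1 lower. The receptor Tgfbr1 had 521, 530 and 634 CPM in list-low microglia, against 51.3 and 78.8 CPM in border macrophages, a log2 change of 3.03 ± 0.30, and Smad7 had 627 UMIs in list-low microglia against 3. Several genes had 0 UMIs in border macrophages. The adhesion receptor Adgrg1 was at least 54.9-fold higher (313 UMIs against 0), the protease Klk8 at least 40.9-fold, Upk1b at least 25.3-fold and Adora3 at least 18.2-fold. On the lower side, Dab2, an endocytic adaptor, had 13.7, 0 and 12.9 CPM in list-low microglia, against 919 and 1363 CPM, a log2 change of -6.60 ± 0.33. The scavenger receptor Stab1 had 97.9, 160 and 155 CPM in list-low microglia, against 760 and 1418 CPM, a log2 change of -3.22 ± 0.22. The lectin Clec10a had 0 UMIs in list-low microglia against 178, at least 113-fold lower, and Cd36, a lipid scavenger, 0 against 165, at least 105-fold lower. DESeq2 called neither of these, and it called 2 of the 10 lowest genes in this comparison. Cd209a had 0 against 395 UMIs, with reads possibly shared among the Cd209 copies. Of 19 interferon genes 12 were lower and 0 higher (median -2.32), led by Ifi207 (-5.60 ± 0.40) and Ifitm3 (-3.49 ± 0.26). Apoe had a log2 change of -4.34 ± 0.20 against border macrophages; the comparisons with the 4 classes share the list-low profiles.

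**Figure D5:**
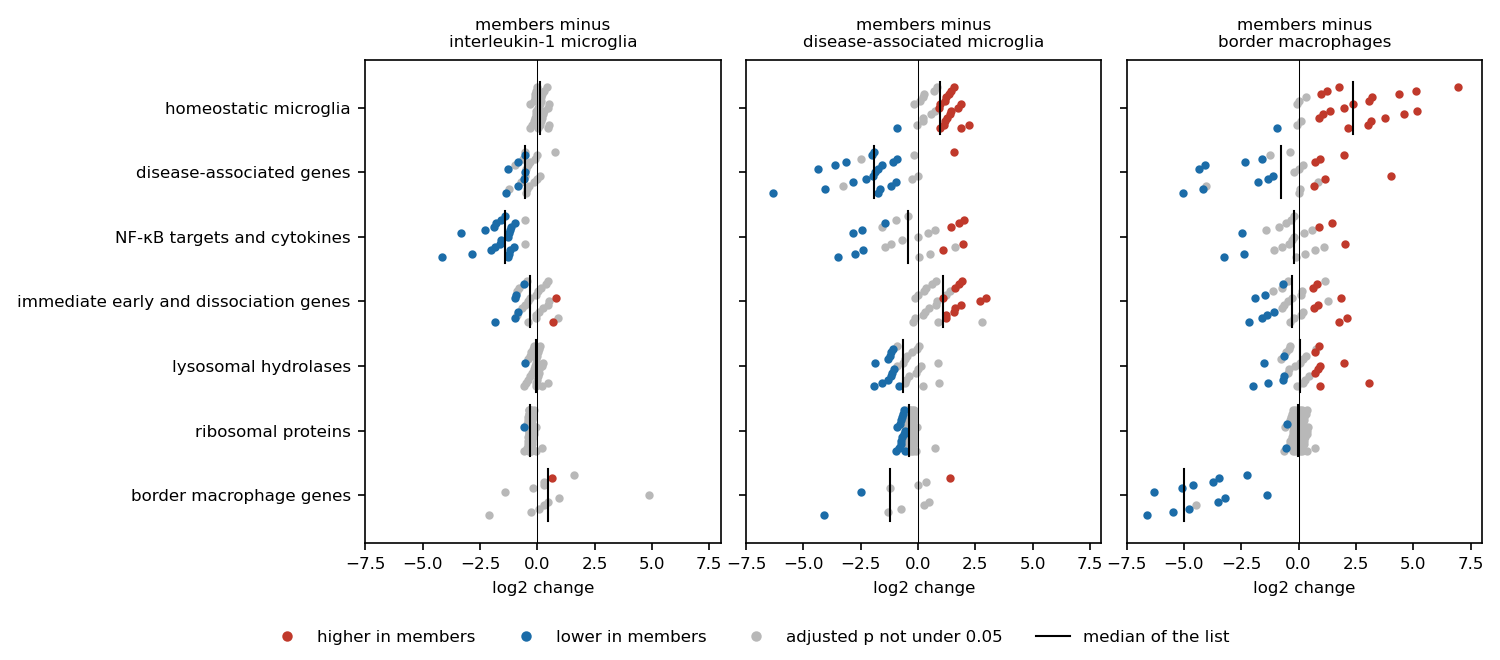
Log2 change of list-low microglia (members) minus interleukin-1 microglia, disease-associated microglia and border macrophages for 7 gene lists, 1 point per gene with at least 4 UMIs on both sides, coloured by direction where edgeR's adjusted p was under 0.05. The line marks the median of all tested genes of the list, which for homeostatic genes is 0.12, 0.96 and 2.37 in the 3 panels.

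Against the mean of the non-myeloid classes (endothelial cells, astrocytes, ependymal cells, pericytes and oligodendrocyte precursors), all 29 homeostatic genes were higher, with a median log2 change of 6.85. Of 10657 genes tested, 2202 (20.7%) were higher and 1168 (11.0%) lower, 31.6% in all, with a median of 0.10; without replicate 1 there were 659 lower. The lead genes were Rhoh, a GTPase of blood cells (10.56 ± 0.54), Cd33 (10.03 ± 0.40), Adora3 (9.97 ± 0.55), Fcgr1 (9.69 ± 0.35) and Slc2a5 (9.68 ± 0.36). By DESeq2 the 10 highest genes had log2 changes of 7.26 to 8.07, against 9.58 to 10.56 by edgeR. Adora3 had 5 UMIs in all non-myeloid classes, so the size of its change is not fixed by these counts. Of 29 lysosomal hydrolases 28 were higher and 0 lower, with Ctss (7.75 ± 0.21) at the top. Of 21 purine and other surface receptors 20 were higher, and of 19 myeloid transcription factors 16 were higher and 1 lower. Among 17 genes of transforming growth factor β signalling, Tgfb1 (6.88 ± 0.37) and Nrros (6.10 ± 0.56) had the largest positive changes, while the ligand Tgfb2 was lower (-2.24 ± 0.48). Ribosomal protein genes were higher in 78 of 81, and 8 of 13 mitochondrially encoded genes were lower, such as mt-Atp6 (-0.91 ± 0.21). Cavin2, a caveolar gene of endothelium, had 0 UMIs in list-low microglia against 17313 in the non-myeloid classes, at least 144-fold lower.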

How the data were processed

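Droplet 3′ RNA-seq of hippocampal cells gave 3 libraries of 1 group. The authors deposited raw UMI counts per gene and barcode, made with Cell Ranger on mm10, per the submitters' processing notes; no version number is named there. Replicates come from separately labelled samples; the labels do not tie them to animals, so p-values measure only the spread between these samples, which may be technical. The members and gene lists were chosen with earlier results of these data known.

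Classes were cut by detected markers in cells with at least 2000 UMIs and at most 20% mitochondrial UMIs, and 2785 such cells stayed unassigned. Scrublet (expected rate 0.06) marked 116, 2 and 86 doublets (2.31, 0.313 and 2.22%), 2, 0 and 0 of them members; they were kept. Pairs of libraries shared 3, 12 and 2 barcodes. Profiles were sums over the cells of a class in 1 library, for classes of 10 cells or more, fitted with edgeR 4.0.16 (quasi-likelihood, robust, TMM, filterByExpr, library as block, R 4.3.3), threshold 0.05. SEs are the absolute log2 change over the square root of F. The pairing comes from the shared library: deviations from class means in list-low and interleukin-1 microglia correlated at r = 0.451, 0.367 and 0.474 over 2616 genes (mean at least 50 CPM). CPM are UMIs scaled to 1000000 per profile. Genes were named by rule: the 10 highest and 10 lowest called genes of each comparison that kept 1 sign across libraries and reached 50 CPM in either class, the 2 most changed called genes of each list in each direction, and the top levels, ratios and variances; further members of the lists were named after their values were seen. Genes of the rule were fitted but not counted. Scripts were tested on simulated data. DESeq2 1.42.0, other class cuts, thinning and left-out libraries were alternatives. Promoters came from RefSeq for 109 of 144 symbols. Scanpy 1.11.5 and Python 3.11.15 handled the matrices. Some genes are not reported here.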

Additional observations from a re-analysis of the deposited data

Results flagged for a closer look

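Outside the cells analysed, barcodes of at least 1000 but under 2000 UMIs that met every other condition for list-low microglia numbered 42 of 876 in replicate 1, 12 of 185 in replicate 2 and 56 of 914 in replicate 3. No expected number was set for these counts, so their size was not tested. These barcodes were singled out because they lie under the depth limit of 2000 UMIs and so entered no comparison, and no class was tested in them.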

How the results depend on the processing

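With library left out as a block (no replicate block), 25 genes were higher and 113 lower in list-low than in interleukin-1 microglia, and 95 and 153 against disease-associated microglia. With 1 replicate left out in turn, the counts were 41 to 127 higher and 222 to 304 lower against interleukin-1 microglia, 87 to 177 and 166 to 237 against disease-associated microglia, 215 to 593 and 270 to 577 against border macrophages, and 1736 to 2125 and 659 to 1002 against non-myeloid classes, and the share was 14.3 to 20.6%. DESeq2 gave 57 higher and 200 lower against interleukin-1 microglia. Classes cut from thinned UMIs gave 239 higher against interleukin-1 microglia, 430 and 557 against disease-associated microglia, 3006 lower against non-myeloid classes and a share of 40.6%. Members with 0 listed genes gave 63 and 196, 63 and 124, 285 and 354, and 1036 and 299 against the 4 classes in the order above, and a share of 5.53%. The next settings were chosen after seeing the data. Cells of 2000 to 6000 UMIs gave 1 and 46, 13 and 22, and 153 and 163 against the 3 myeloid classes, with 1372 genes tested, and a share of 35.9%. Cells with at most 1 astrocyte marker gave 37 and 152 against interleukin-1 microglia, 111 higher against disease-associated microglia, and 351 and 356 against border macrophages. Cells with no astrocyte marker gave 1 and 8 against interleukin-1 microglia and 956 and 415 against non-myeloid classes, and too few cells for disease-associated microglia and border macrophages. Without cells of 3 or more markers of 1 of the 10 classes there were 35 and 191 against interleukin-1 microglia. Against disease-associated microglia the same cut gave 125 higher. Of the NF-κB list, 13 of 23 genes were lower without the block, 10 of 16 at 2000 to 6000 UMIs and 1 of 23 with no astrocyte marker. Gpx3 turned to 0.053 against disease-associated microglia at 2000 to 6000 UMIs, and Fam183b to 0.38 against non-myeloid classes in thinned classes; 142 further values of named genes kept their direction and lost the call, and 1027 kept both. The cause was not tested. Depth limits genes under a few UMIs per class, above all in replicate 2 with 17 list-low cells and in the 37 disease-associated cells.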
